A study of Mus musculus with 2 samples.

Results

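The miRNA genes of the Hox clusters were read in small-RNA libraries of mouse forebrain at embryonic day 12.5. They are Mir10a, Mir10b, Mir196a-1, Mir196a-2, Mir196b and Mir615. They were taken by name, through the Ensembl IDs that carry these symbols in GENCODE M21, with no cut on level. Earlier results of these data were known when they were chosen. All 6 had a row among the 1973 miRNA genes of the deposited tables. The series held 1 group with 2 biological replicates, both of them forebrain of B6NCrl embryos for which the labels name no mutant allele and no treatment. Replicate 1 was a pool of 120 embryos and replicate 2 a pool of 68 embryos, males and females together, and RNA below 30 nt was sequenced. Each pool gave 1 library, so any test between replicates compares these libraries and may measure technical spread. No tissue from behind the forebrain was part of the series, so the levels below have no posterior tissue to stand beside.

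Hox genes encode transcription factors that give cells their position along the body axis, and in the central nervous system they are used from the hindbrain backwards and not in the forebrain. The clusters also carry hairpins for miRNAs, short RNAs that lower the output of messenger RNAs through pairing with the seed near their 5′ end. Hox messenger RNAs are among their known targets: miR-196 directs cleavage of the Hoxb8 message in mouse, and miR-10 represses hoxb1a and hoxb3a in zebrafish. The question was how far these posterior miRNAs were silent in forebrain.

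The mature forms are shown because they decide which of the genes can be told apart by a read. Sequences are from RefSeq for GRCm38.p6, run 5′ to 3′, and have the seed, bases 2 to 8, in capitals. All 6 genes had mature forms in that table.
miR-10a-5p (Mir10a): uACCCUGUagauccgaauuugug
miR-10b-5p (Mir10b): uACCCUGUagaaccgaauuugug
miR-196a-5p (Mir196a-1 and Mir196a-2): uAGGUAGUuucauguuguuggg
miR-196b-5p (Mir196b): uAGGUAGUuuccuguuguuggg
miR-615-3p (Mir615): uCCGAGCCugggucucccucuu

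The 5p forms fell into 2 seed groups. Among 1679 mature names in the table, the seed of miR-10a-5p was shared with miR-10b-5p only, and that of miR-196a-5p with miR-196b-5p only. No other mature form had the seed of miR-615-3p. Counted from base 1 at the 5′ end, miR-10a-5p and miR-10b-5p differed by the substitution U12A, and miR-196a-5p and miR-196b-5p by A12C. Each pair therefore had the same seed and a difference in the middle of the molecule.

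Only Mir196a-1 and Mir196a-2 could not be separated by their 5p form. The 22 bases of miR-196a-5p stood in both hairpins, whereas each of the other mature forms of the 6 genes occurred in 1 of 2202 hairpins of GENCODE M21. The hairpins of both genes are given with their mature arms in capitals.
Mir196a-1: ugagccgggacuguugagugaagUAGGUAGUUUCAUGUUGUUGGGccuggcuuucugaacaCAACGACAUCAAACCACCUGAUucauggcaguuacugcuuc
Mir196a-2: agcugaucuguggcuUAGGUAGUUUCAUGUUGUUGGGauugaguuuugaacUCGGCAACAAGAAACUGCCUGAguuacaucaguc

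Outside the 22 shared bases the hairpins differed, and the 3p arms had an edit distance of 9. In the deposited tables reads that match several places stand outside the gene counts. A read that ends within the 22 shared bases fits both loci, so the counts of Mir196a-1 and Mir196a-2 need not hold miR-196a-5p and cannot show that it was absent. For Mir10a and Mir10b the longest run shared by their hairpins was 15 bases, and for Mir196b the longest run shared with any other hairpin was 12 bases. Over annotated hairpins these genes thus have no exact copy of their mature forms. With 1 mismatch allowed, miR-10a-5p also matched the Mir10b hairpin, miR-10b-5p the Mir10a hairpin, and miR-196b-5p the hairpins of Mir196a-1 and Mir196a-2. How many mismatches the alignment allowed is not given in the labels or notes. The rest of the genome was not examined.

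The 6 genes lie in all 4 Hox clusters. Mir10a (ENSMUSG00000065519.1; chr11:96317165-96317274 of mm10, plus strand) stood between Hoxb5 and Hoxb4, 993 bases before Hoxb4 and outside any annotated transcript of its strand. Mir10b (ENSMUSG00000065500.2; chr2:74726070-74726137, plus strand) lay in introns of 2 Hoxd4 transcripts and 1 Hoxd3 transcript. Both miR-10 genes thus sit beside paralogue group 4. Mir196a-1 (ENSMUSG00000065546.1; chr11:96265164-96265265, plus strand) was intergenic, 6192 bases before Hoxb9. Mir196a-2 (ENSMUSG00000065488.1; chr15:102973350-102973434, plus strand) lay between Hoxc10 and Hoxc9, in an intron of 1 long Hoxc5 transcript. Mir196b (ENSMUSG00000065443.1; chr6:52230081-52230165, minus strand) lay 1032 bases after Hoxa10, within exons of 2 Hoxa9 transcripts and an intron of 1 more. Mir615 (ENSMUSG00000076010.1; chr15:103014910-103015001, plus strand) was intronic in 2 Hoxc5 transcripts. Positions are those of M21. Mir10b and Mir196a-2 have a later ID version there than in the tables, so the counted interval can differ for these genes.

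**Figure D1:**
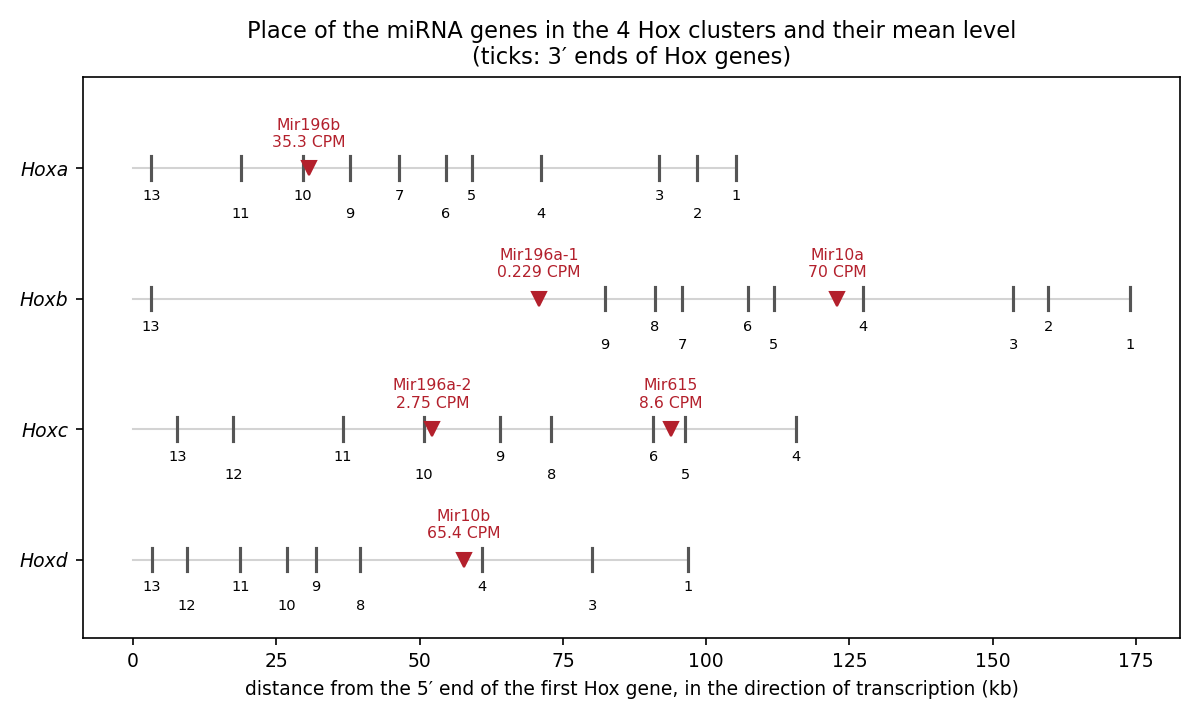
The 4 Hox clusters drawn in the direction of transcription, with distance in kb from the 5′ end of the first Hox gene on the x axis, a tick at the 3′ end of each numbered Hox gene and a triangle at each miRNA gene. The mean CPM of 2 replicates stands above each triangle, from 70.0 for Mir10a beside Hoxb4 down to 0.229 for Mir196a-1 before Hoxb9.

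The Hox miRNA genes were low in forebrain, but none of the 6 was without reads in either library. Of the 6, 5 reached at least 10 reads in both libraries, which was called detected; 20.4% of all 1973 genes did so. Levels are counts per 1000000 reads assigned to a miRNA gene on its strand (CPM). The libraries held 4333194 and 4397107 such reads, so that 3 reads, the limit that a count of 0 allows, correspond to 0.692 CPM in replicate 1 and, in replicate 2, to 0.682 CPM. Because the mature forms were 22 or 23 bases long, reads were compared between genes without correction for length. The labels name no molecular identifiers, so intervals and limits cover counting error only.

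The miR-10 genes led the group. Mir10a had 325 and 286 reads in replicates 1 and 2, or 75.0 CPM (exact Poisson 95% interval 67.1 to 83.6) and 65.0 CPM (57.7 to 73.0). Mir10b had 269 and 302 reads, or 62.1 CPM (54.9 to 70.0) and 68.7 CPM (61.2 to 76.9). Mir10a was the higher of the pair in replicate 1 and Mir10b in replicate 2, so the ranges of these paralogues overlapped. Mir10a averaged 70.0 ± 7.04 CPM and Mir10b 65.4 ± 4.67 CPM (SD, n = 2 each). Of the reads of both genes, Mir10a held 54.7% in replicate 1 (exact Clopper-Pearson 95% interval 50.6% to 58.8%) and 48.6% in replicate 2 (44.5% to 52.8%). The intervals of the libraries overlapped.

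Mir196b, which lies within Hoxa9, came next. It had 169 and 139 reads, or 39.0 CPM (33.3 to 45.3) in replicate 1 and 31.6 CPM (26.6 to 37.3) in replicate 2. Both values lay below the lower of the Mir10b values, and the mean of 35.3 ± 5.23 CPM was 1.85-fold lower than that of Mir10b. Because miR-196b-5p differs from miR-196a-5p at base 12, reads without mismatches over that base can be placed on Mir196b.

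Mir615, in the intron of Hoxc5, had 43 and 32 reads, or 9.92 CPM (7.18 to 13.4) and 7.28 CPM (4.98 to 10.3). Its mean of 8.60 ± 1.87 CPM was 4.11-fold below Mir196b, and the replicate ranges of these genes did not overlap. The lowest members were the miR-196a genes, whose counts can lack reads of the shared 5p form. Mir196a-2 had 10 and 14 reads in replicates 1 and 2, or 2.31 CPM (1.11 to 4.24) and 3.18 CPM (1.74 to 5.34). Mir196a-1 had 1 read in each library, or 0.231 CPM (0.00584 to 1.29) and 0.227 CPM (0.00576 to 1.27). The point values of Mir196a-1 lay below the limit that a count of 0 allows, so it could not be told from an unread gene at this depth.

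**Figure D2:**
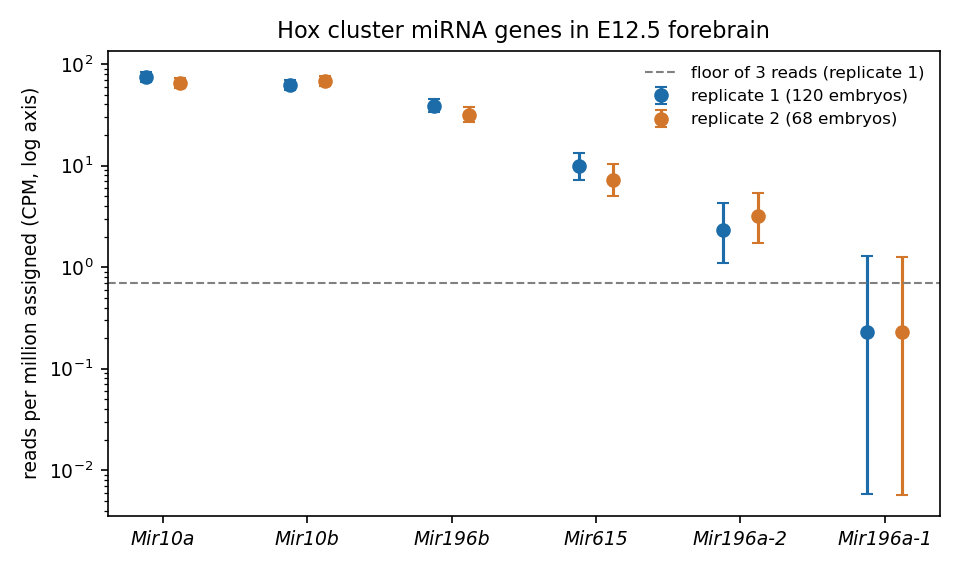
Level of each Hox cluster miRNA gene in both libraries, in CPM on a log axis, with exact Poisson 95% intervals as bars and the limit that a count of 0 allows in replicate 1 as a dashed line. Mir10a, from 65.0 to 75.0 CPM, overlaps Mir10b, from 62.1 to 68.7 CPM, while Mir196b and Mir615 lie lower, and the bars of Mir196a-1 cross the dashed line.

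By mean level, the order was Mir10a, Mir10b, Mir196b, Mir615, Mir196a-2 and Mir196a-1, and Mir10a and Mir10b were the only neighbours in it whose replicate ranges overlapped. The Poisson interval of Mir196a-2 also overlapped that of Mir196a-1 in replicate 1 and that of Mir615 in replicate 2. The order by mean level puts the miRNAs beside paralogue group 4 above those beside groups 9 and 10. Mir615 beside group 5 was an exception, since it stood below Mir196b. Counts of Mir196a-1 and Mir196a-2 can lack miR-196a-5p, so beside groups 9 and 10 only Mir196b had a level free of this limit. Together Mir10a and Mir10b supplied 72.7% of the reads of the 6 genes in replicate 1 (exact Clopper-Pearson 95% interval 69.5% to 75.7%) and 76.0% in replicate 2 (72.8% to 78.9%). Mir196b supplied 20.7% (17.96% to 23.6%) and 17.96% (15.3% to 20.8%). The make-up of the group was thus close in both pools, with the reserve that these counts can lack miR-196a-5p.

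Among all genes the leading Hox miRNAs stood below the middle of the detected range but not at its foot. Mir10a had rank 241 and Mir10b rank 245 of 1973 by mean CPM, Mir196b rank 268, Mir615 rank 326, Mir196a-2 rank 407 and Mir196a-1 rank 660. Of the 403 detected genes, 162 lay below Mir10a, 135 below Mir196b, 77 below Mir615 and 4 below Mir196a-2, while the median of the 403 was 155.5 CPM. No read was found in either library for 1210 genes, or 61.3% of the 1973. The median level was 21.95 CPM over the 6 Hox genes and 0 over all genes. In the order of mean level over the 2 libraries, the genes just above and just below Mir10a were Mir145a, at 77.1 ± 19.0 CPM (SD, n = 2) and a log2 difference of 0.14, and Mirlet7a-1, at 68.5 ± 6.42 CPM and -0.03. Those just above and just below Mir10b were Mirlet7a-2, at 66.6 ± 3.52 CPM, and Mir448, at 62.8 ± 21.5 CPM. Mir196b stood between Mir3061, at 35.9 ± 3.45 CPM, and Mir1264, at 34.4 ± 15.4 CPM. For Mir615 the neighbours were Mir873a, at 9.05 ± 0.0683 CPM, and Mir5101, at 8.59 ± 0.251 CPM. Mir299b, at 2.75 ± 0.0285 CPM, and Mir6928, at 2.74 ± 0.944 CPM, enclosed Mir196a-2. Where genes share a mature form, as can hold for Mirlet7a-1 and Mirlet7a-2, reads that fit several places can be missing from their counts. Their ranks are those of the counted reads and need not give the level of the miRNA.

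**Figure D3:**
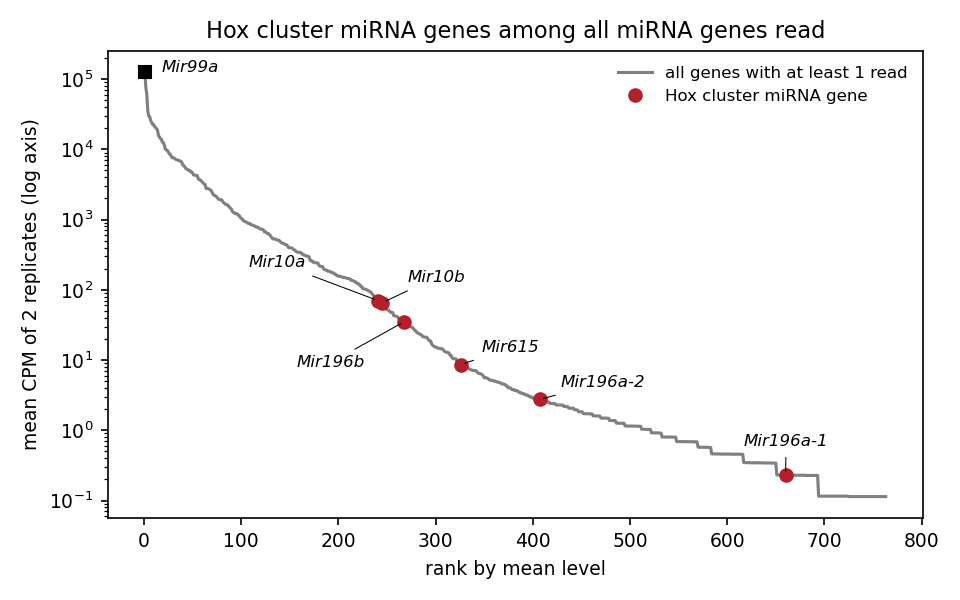
Mean CPM of 2 replicates on a log axis against rank for every miRNA gene with at least 1 read, with the Hox cluster genes as red points and the most abundant gene, Mir99a, as a black square. Mir10a and Mir10b lie at ranks 241 and 245, and Mir196a-1 lies at rank 660 among genes with few reads.

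The miR-10 genes belong to a superfamily with miR-99, miR-100 and miR-125, whose genes lie outside the Hox clusters, and its branches stood far apart in forebrain. The mature forms of miR-99a and miR-100 are shown because they are close to miR-10a-5p but have another seed.
miR-10a-5p: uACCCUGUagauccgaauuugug
miR-99a-5p: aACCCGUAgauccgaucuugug
miR-100-5p: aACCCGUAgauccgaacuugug

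The edit distance to miR-10a-5p was 4 for miR-99a-5p and 3 for miR-100-5p, and the runs shared with it were 10 and 11 bases long. Mir99a was the most abundant gene of the tables, with 578968 and 522933 reads in replicates 1 and 2. Mir10a, at 70.0 CPM, stood 1803-fold below Mir99a, at 126269 ± 10384 CPM (SD, n = 2). The 6 Hox genes together reached 188.5 and 176.0 CPM in replicates 1 and 2, against 193066 and 180442 CPM for the 6 genes of the miR-99, miR-100 and miR-125 group. The log2 ratio of the Hox sum to that group was -10.00 in both replicates. The Hox sum also holds the miR-196 genes and Mir615, which are not miR-10 genes. Mir10a and Mir10b alone summed to 137.1 and 133.7 CPM in replicates 1 and 2. Within the miR-99, miR-100 and miR-125 group Mir99b had 29722 ± 660.6 CPM. Mir125b-1 and Mir125b-2 give the same 5p form and can lack its reads, so the sum of this group can be a low estimate. Whether variants of the abundant miR-99 or miR-100 reads were placed on Mir10a or Mir10b was not tested, since the tables hold no read sequences.

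The seed of the miR-196 forms also has a close relative in let-7, a family that limits proliferation. Of 9 let-7 and miR-98 5p forms, all but let-7e-5p held the 7 bases of the miR-196 seed, shifted by 1 position, so their own seeds differ from it. The whole forms were further apart, with edit distances to miR-196a-5p between 8 and 11. Mir196b stood at 39.0 and 31.6 CPM in replicates 1 and 2, against 44958 and 48751 CPM for the 10 let-7 and miR-98 genes with a row. The sum of all Hox genes, 188.5 and 176.0 CPM, came mostly from Mir10a and Mir10b, which have another seed. By counted reads, Mirlet7g, at 25690 ± 557.3 CPM, and Mirlet7i, at 14922 ± 1891 CPM (SD, n = 2 each), led the let-7 family. Mirlet7c-1 and Mirlet7c-2 give the same 5p form, as do Mirlet7f-1 and Mirlet7f-2, so their counts can lack its reads. Mirlet7e and Mirlet7f-1 had no row. The let-7 sum can therefore be a low estimate, and the order of its genes need not be that of the miRNAs.

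As shares of assigned reads, the Hox genes held 0.0189% in replicate 1 (exact Clopper-Pearson 95% interval 0.0176% to 0.0202%) and 0.0176% in replicate 2 (0.0164% to 0.0189%). Forebrain miRNAs, a list of 11 genes with 10 rows, held 2.90% and 2.85%, which was 153.7 and 162.0 times the Hox share. Its leading members were Mir92b, found in cortical progenitors, at 19620 ± 283.3 CPM and Mir137, a regulator of neuronal differentiation, at 5207 ± 112.5 CPM (SD, n = 2 each). Mir9-2, Mir9-3 and the 3 Mir124a genes, whose mature forms have several copies, stood far lower. Their levels ran from 1.95 CPM for Mir124a-1 to 713.5 CPM for Mir9-3, and Mir9-1 had no row. The sum of the forebrain list is therefore a low estimate. In bulk tissue, few cells with much of a miRNA and many cells with little of it cannot be told apart.

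Lists of miRNAs known from other organs gave a scale for low levels. These lists were chosen with earlier results of these data known. The Hox share of 0.0189% and 0.0176% stood above the muscle and heart list, at 0.00332% (0.00280% to 0.00391%) in replicate 1 and 0.00534% (0.00468% to 0.00607%) in replicate 2, where 4 of 8 genes with a row were detected. Mir133a-1 and Mir133a-2, which give the same mature form, were at 0 and Mir1a-2 had no row, so the sum of this list can also be a low estimate. Its leading members were Mir208b, at 18.8 ± 0.518 CPM, and Mir206, at 14.8 ± 16.7 CPM (SD, n = 2 each). The same Hox share stood below the liver and islet list, at 0.0808% (0.0781% to 0.0835%) and 0.0719% (0.0694% to 0.0745%), where 7 of 8 genes were detected. Mir375, typical of endocrine islet cells, led that list at 387.3 ± 77.6 CPM, followed by Mir217, of the exocrine pancreas, at 124.3 ± 11.02 CPM. The interval of the Hox share overlapped that of neither list in either library. No test over samples was run on these shares, since an exact two-sided permutation of 2 values against 2 cannot give a p below 0.333.

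**Figure D4:**
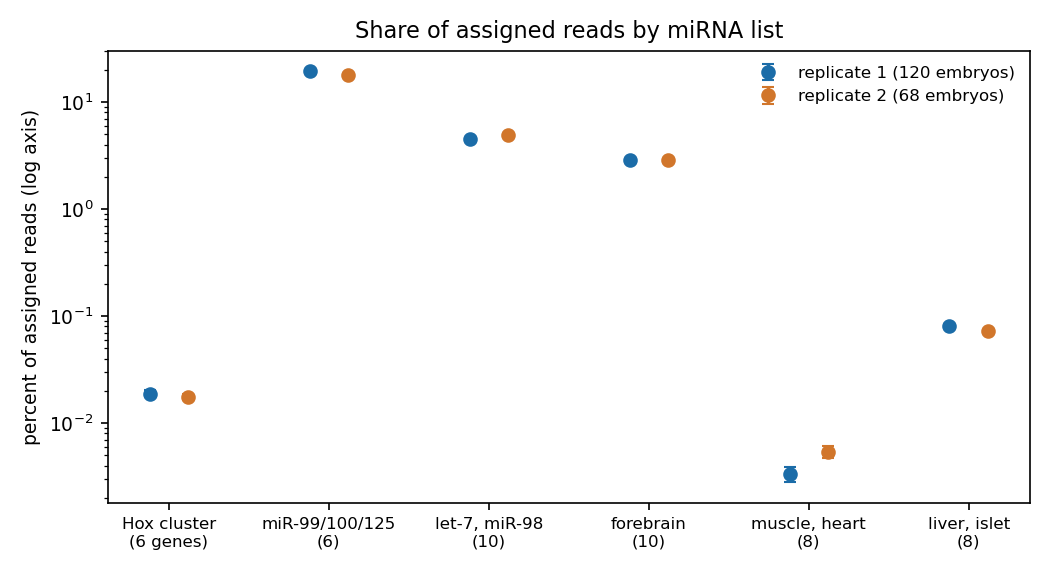
Share of assigned reads in percent, on a log axis, for the Hox cluster miRNA genes and 5 comparison lists in both libraries, with exact Clopper-Pearson 95% intervals as bars, which are mostly smaller than the points. The Hox share of 0.0189% and 0.0176% lies between the muscle and heart list and the liver and islet list.

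The pools were also set against each other, which asks whether the low Hox reads came from 1 pool. They did not: all 6 genes were read in both, and the summed Hox reads were 817 in replicate 1 and 774 in replicate 2. Two-sided Fisher's exact tests with Benjamini-Hochberg adjustment over 511 genes called 14 genes, or 2.74%, where a call needed a 2-fold difference in CPM besides an adjusted p under 0.05. None of the 5 Hox genes tested was called, none passed the adjusted p alone, against 32.7% of all genes tested, and none had an unadjusted p under 0.05, against 39.9%. Mir196a-1 had too few reads to be tested. Mir196b had a log2 ratio of replicate 1 to replicate 2 of 0.29 (Fisher's exact test, adjusted p = 0.162), Mir10a 0.20 (adjusted p = 0.187), Mir615 0.40 (adjusted p = 0.376), Mir10b -0.14 (adjusted p = 0.41) and Mir196a-2 -0.34 (adjusted p = 0.708). Mir10a, Mir196b and Mir615 were thus higher in replicate 1, and Mir10b and Mir196a-2 in replicate 2. For all 6 genes the Poisson intervals of the libraries overlapped, so a difference between the pools was not detectable at this depth. The median absolute log2 ratio was 0.29 over the 5 Hox genes tested and 0.20 over all 511 genes.

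**Figure D5:**
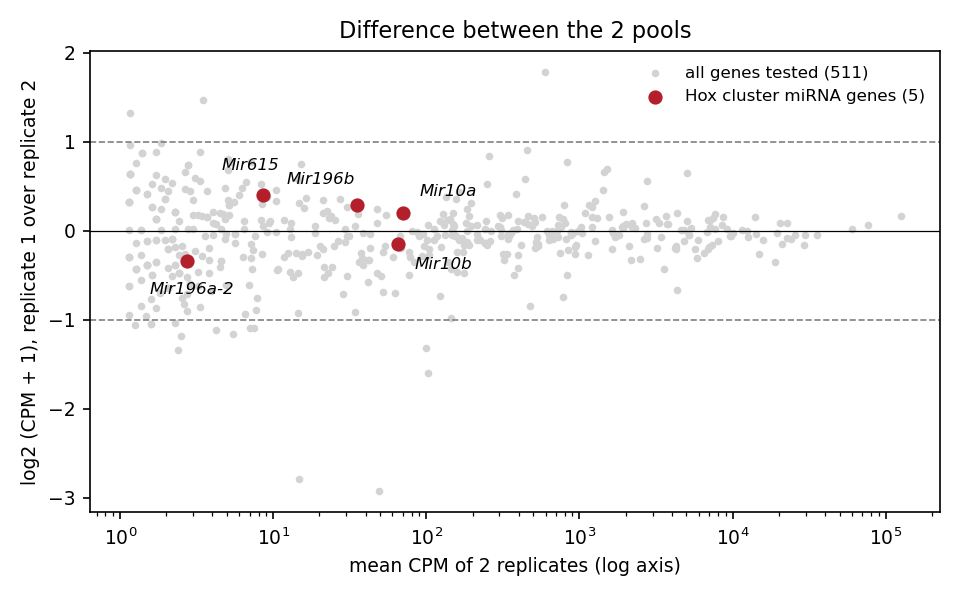
Log2 ratio of CPM + 1 in replicate 1 over replicate 2 against mean CPM on a log axis, for 511 genes tested (grey) and the 5 Hox cluster genes among them (red), with dashed lines at a 2-fold difference. The red points lie between -0.34 for Mir196a-2 and 0.40 for Mir615.

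Markers of other cell types were read beside the Hox genes. Mesenchymal and mural miRNAs, with 7 of 7 genes detected, summed to 13294 and 16134 CPM in replicates 1 and 2. Epithelial miRNAs, with 7 of 7 detected, summed to 13628 and 10008 CPM, and the endothelial Mir126a stood at 16564 and 21180 CPM. Red cell miRNAs, with 2 of 2 genes detected, summed to 317.8 and 238.3 CPM. Leukocyte miRNAs, of which 3 of 4 genes had a row and were detected, summed to 372.7 and 452.1 CPM. Of the skeletal muscle markers, 5 of 6 had a row and 1, Mir206, was detected, with 13 and 117 reads. The Hox sum was 188.5 and 176.0 CPM, with Mir10a, Mir196b and Mir615 higher in replicate 1 and Mir10b and Mir196a-2 in replicate 2. None of these differences between the pools was detectable at this depth. The part of such cells in the Hox reads was not tested. On the strand opposite to their hairpins the 6 Hox genes had 0 reads in both libraries, so their counts are the same in the both-strand column.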

How the data were processed

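Small-RNA libraries of 2 forebrain pools were analysed from the raw read counts per gene that the authors deposited, not normalised. Per the file headers and notes, counts came from alignments to mm10 with annotation M4. How reads were trimmed, aligned and counted is not given in the sources used here. Rows that name no gene, 4 in each table, were left out of library sizes. They held 17.5% and 16.8% of reads as unmapped, 37.9% of each library as matching several places, and 5.49% and 5.93% outside features. Libraries held 11104730 and 11154304 reads. The gene-strand column was used, read from the values. Symbols were taken from GENCODE M21 for 1894 of 1973 genes.

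CPM used gene-strand assigned reads. Replicates were compared gene by gene with two-sided Fisher's exact tests over 511 genes whose reads in both libraries summed to at least 10, since 1 group allows no fitted contrast. The step was tested on simulated data. Log ratios used CPM + 1. Alternatives covered the count column, library size, edgeR 4.0.16 TMM and DESeq2 1.42.0 size factors, minimum reads, pseudocounts and each replicate left out. Named genes were the 6 members, the genes next to each detected member in mean CPM, the 2 highest members of each comparison list and the most abundant gene; marker genes and multi-copy forebrain genes were named beside them. The members and lists were chosen with earlier results of these data known. Python 3.11.15, SciPy 1.17.1 and R 4.3.3 were used.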

Additional observations from a re-analysis of the deposited data

Results flagged for a closer look

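Reads that match several places were picked out as a signal outside the measurement used here. They numbered 4213961 in replicate 1 and 4224434 in replicate 2, and how many of them were miR-196a-5p cannot be read from the tables.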

How the results depend on the processing

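The Hox share of 0.0182% of assigned reads became 0.00863% with all mapped reads in the library size and 0.0209% without Mir99a in it, and every gene was scaled alike by these choices. It ranged from 0.0176% to 0.0189% with each replicate left out, and Mir10a's share of the Mir10a and Mir10b reads from 48.6% to 54.7%. The number of Hox genes detected was 5 with at least 10 reads, 3 with at least 100 reads in both libraries and 6 with at least 1 read. The count of all genes differing between replicates was 14, and 167 by adjusted p alone; no Hox gene was called under either rule, nor with TMM or DESeq2 scaling, the both-strand column or no filter beyond 1 read. No log2 ratio of a Hox gene changed sign with TMM or DESeq2 scaling. No paired analysis was possible because the series holds 1 group. Depth limits Mir196a-1 and Mir196a-2 most, and the loss of reads with several matches limits them further.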
